A study of Homo sapiens with 8 samples.

Results

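Complement C3 and 8 further complement genes, namely CFB, C1R, C1S, CFI, CFD, SERPING1, CD55 and CD59, were followed in IMR90 fibroblasts that received medium from cells entering senescence. They are 9 of the 27696 genes in the count table and were found by their gene symbols. The set was chosen by expression measured in these same libraries, with the counts at D0 to D10 and the size of the C3 increase already known. The changes of the 9 members are therefore given as a description, and no p-value is attached to them. IMR90 are primary fibroblasts from human embryonic lung. The donors of the medium were IMR90 fibroblasts carrying ER:RAS, an oncogene fusion that 4-OHT switches on, and the recipients were normal IMR90 cells without it, incubated for 3 days. The medium was taken on day 0, 4, 7 or 10 of 4-OHT, which gave the 4 groups D0, D4, D7 and D10, each with 2 libraries from 2 independent experiments. All groups received medium conditioned by ER:RAS cells in the absence of serum, the D0 reference included, and no library of cells in fresh medium was analysed here.

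Complement is a cascade of plasma and membrane proteins in which one protease activates the next. C1r and C1s, bound to C1q, start the classical pathway, whereas factor D and factor B drive the alternative pathway, and both routes end in the cleavage of C3 into C3a, a small inflammatory peptide, and C3b, which tags surfaces. Host cells hold the cascade in check with the C1 inhibitor, factor I and membrane proteins such as CD55 and CD59. The liver makes most plasma complement, but fibroblasts are a known local source of several components, and C3 is a classical acute-phase gene.

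C3 was the one member above the floor of detection that had a higher level at D10 than at D0 in both experiments, and the increase came late. C3, which lies at chr19:6677704-6730562 on the minus strand (GRCh38, GENCODE 29; ENSG00000125730.16), was measured in CPM, counts scaled to a common library size that was adjusted with edgeR's TMM method. In experiment 1 it was at 2.68 CPM in D0, 2.95 in D4, 21.8 in D7 and 417 in D10. In experiment 2 the levels were 2.91, 2.53, 13.1 and 216 CPM. D0 and D4 thus overlapped, while both D7 libraries lay above all D0 and D4 libraries and both D10 libraries lay above the rest. The counts behind these levels were 32 and 40 in D0, 38 and 34 in D4, 286 and 172 in D7, and 5267 and 2735 in D10, well above the 3 counts taken as the floor (0.218 to 0.251 CPM).

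The mean C3 level was 2.80 ± 0.163 CPM in D0 cells and 2.74 ± 0.293 in D4 cells, and reached 17.5 ± 6.21 in D7 cells and 316 ± 142 in D10 cells (SD, n = 2 each). Compared with D0 of the same experiment, C3 was 156-fold higher at D10 in experiment 1 and 74.1-fold higher in experiment 2. At D7 it was 8.15-fold and 4.49-fold higher. The fit of all 8 libraries in edgeR placed the log2 fold change of C3 at -0.03 (SE 0.42) for D4, 2.64 (SE 0.40) for D7 and 6.82 (SE 0.47) for D10. When 1 library at a time was left out, the D10 value ranged from 6.28 to 7.21 and the D7 value from 2.22 to 2.96.

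The C3 difference built up in 2 steps of unequal size. C3 was 7.41-fold higher at D7 than at D4 in experiment 1 and 5.15-fold in experiment 2, and a further 19.1-fold and 16.5-fold higher at D10 than at D7. On the log2 scale, D7 cells had covered 41.6% and 34.9% of the distance between D0 and D10, whereas on the linear CPM scale they had covered 4.63% and 4.77%. D4 cells stood at 1.88% and -3.22% of the log2 distance. These values share the D0 libraries.

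**Figure D1:**
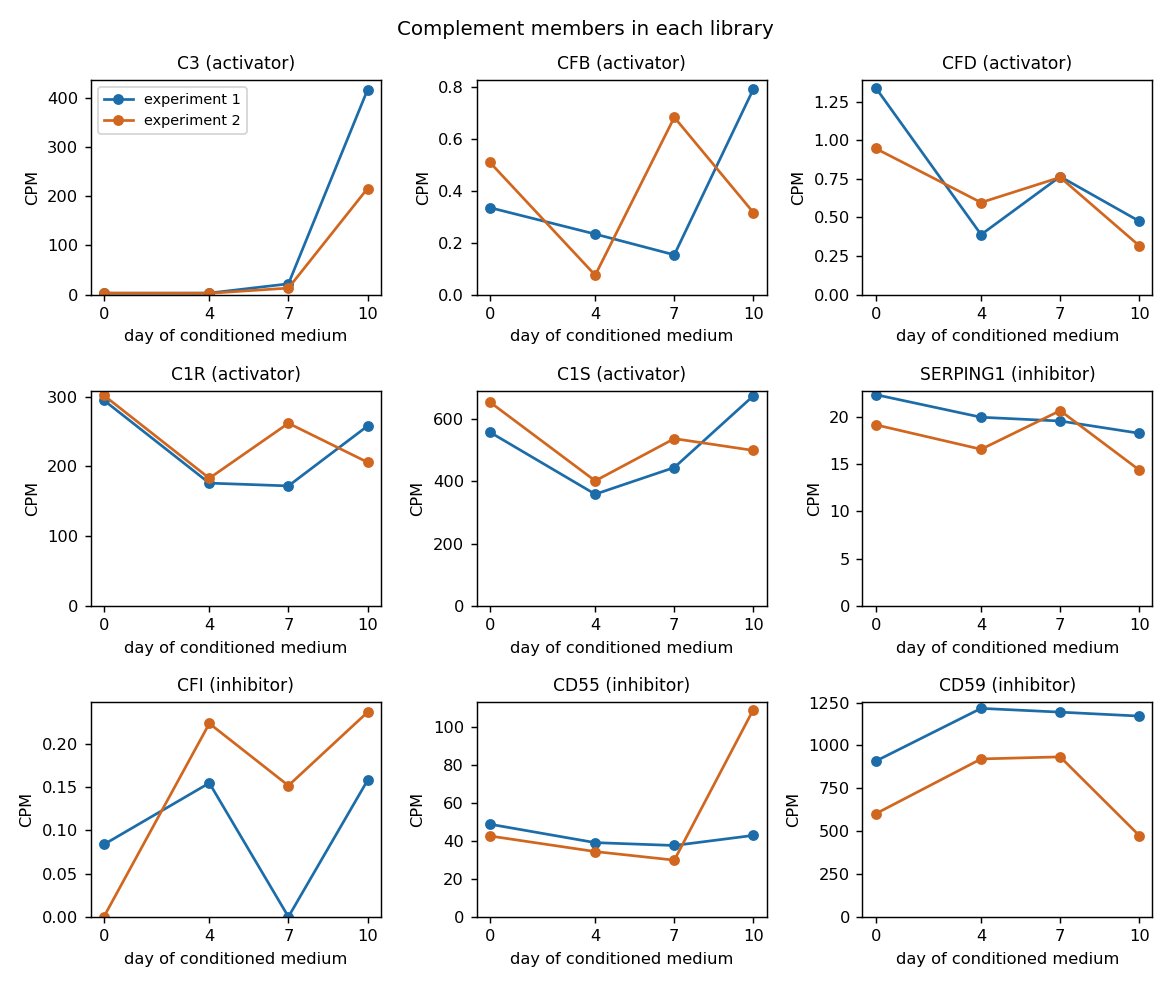
CPM of the 9 members on the y axis (linear, a separate scale for each gene) against the day on which the conditioned medium was taken, with 1 point per library and 1 line per experiment. C3 goes from 2.68 and 2.91 CPM at D0 to 417 and 216 at D10, and no other member has a D10 level in both experiments above its D0 levels by more than a few counts.

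The partners of C3 in the alternative pathway did not follow it. CFB encodes factor B, the zymogen that supplies the protease of the alternative C3 convertase, and lies at chr6:31945650-31952084 on the plus strand. Its counts were 4 and 7 in D0, 3 and 1 in D4, 2 and 9 in D7, and 10 and 4 in D10. CFB was therefore close to the floor in every library, was removed by the filter on low counts, and differences between its groups were not detectable at this depth. Of the CFB exon bases, 45.5% are also covered by C2 or another gene model on the same strand, so some of these few reads could belong elsewhere. CFI, the inhibitor protease factor I that cleaves C3b (chr4:109740694-109802179, minus strand), had between 0 and 3 counts in all 8 libraries and was at the floor throughout.

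CFD encodes factor D, the protease that cleaves factor B (chr19:859643-863630, plus strand). It was at 1.34 and 0.946 CPM in D0, 0.388 and 0.596 in D4, 0.764 and 0.759 in D7, and 0.475 and 0.316 in D10 in experiments 1 and 2. All later libraries lay below both D0 libraries, but the counts were small, 16 and 13 in D0 and 6 and 4 in D10. Only with its D0 libraries did CFD pass the filter on low counts, so its lower values later were partly set by that filter. The fitted log2 fold changes of CFD were -1.19 (SE 0.52), -0.58 (SE 0.49) and -1.50 (SE 0.53) at D4, D7 and D10. Both experiments had similar values at D10, -1.50 and -1.58.

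The RefSeq table of start sites (GRCh38.p14) holds windows from 250 bases before to 50 bases after a start of CFB, CFD, C1R, CFI, CD55 and CD59. The windows of CFB and CD55 are shown as those of an activator that stayed near the floor and of the inhibitor with the highest change from D0 to D10 in a single experiment. CFB (plus strand, chr6:31945845-31946144) and CD55 (plus strand, chr1:207321428-207321727) read as follows, with capitals for letters that match one of the motifs searched.
CFB: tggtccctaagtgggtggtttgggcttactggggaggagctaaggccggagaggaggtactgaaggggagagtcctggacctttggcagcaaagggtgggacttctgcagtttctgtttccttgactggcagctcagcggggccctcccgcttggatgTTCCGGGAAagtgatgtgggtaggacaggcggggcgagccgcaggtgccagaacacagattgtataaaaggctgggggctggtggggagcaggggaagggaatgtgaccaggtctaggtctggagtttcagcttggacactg
CD55: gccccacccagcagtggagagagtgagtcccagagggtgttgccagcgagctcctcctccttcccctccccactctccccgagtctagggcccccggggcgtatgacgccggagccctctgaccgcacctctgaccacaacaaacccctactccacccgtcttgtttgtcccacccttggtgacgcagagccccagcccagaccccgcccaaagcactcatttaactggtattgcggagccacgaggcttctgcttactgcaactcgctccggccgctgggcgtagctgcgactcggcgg
Both strands were searched for 4 motifs, namely GGNNTTTCC (NF-kappaB-like), TTNNGNAA (C/EBP-like), TGANTCA (AP-1-like) and TTCNNNGAA (STAT-like). CFB had 1 STAT-like match, TTCCGGGAA, that begins 92 bases before the start, and CD55 had no match. Among the windows not shown, that of CFD held no match. C/EBP-like letters were found in C1R, CFI and CD59, AP-1-like letters in CD59, and STAT-like letters in C1R and CD59. C1R and CD59 have several windows, and overlapping windows of CD59 hold the same STAT-like match. The shares that follow are per window, so they do not apply to a gene with several windows. Over all 35116 windows of the same length, 6.26% held the NF-kappaB-like letters, 36.8% the C/EBP-like, 7.71% the AP-1-like and 7.66% the STAT-like letters. C3, C1S and SERPING1 have no sequence printed here.

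The proteases of the classical pathway were abundant at all times and dipped at D4 (n = 2 for each group). C1R encodes the protease that activates C1s within the C1 complex (chr12:7080199-7092607, minus strand). It was at 295 and 302 CPM in D0, 176 and 183 in D4, 172 and 262 in D7, and 258 and 206 in D10. Every later library was below both D0 libraries, and the D4 libraries of the 2 experiments were close together. The fitted log2 fold changes were -0.74 (SE 0.27), -0.46 (SE 0.26) and -0.36 (SE 0.26). Part of the C1R exons (11.4% of bases) overlaps those of C1RL on the same strand.

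C1S encodes the protease that cleaves C4 and C2 (chr12:6988259-7071032, plus strand). Its levels were 559 and 656 CPM in D0, 359 and 402 in D4, 445 and 538 in D7, and 676 and 500 in D10. D4 and D7 lay below D0 without overlap, while D10 overlapped D0, with a higher value in experiment 1 and a lower value in experiment 2. The fitted log2 fold changes were -0.68 (SE 0.26), -0.31 (SE 0.26) and -0.05 (SE 0.26). C1S counts exceeded those of C1R in every library, with a ratio of their CPM of 1.89 and 2.17 in D0 and 2.62 and 2.43 in D10. SERPING1, the serpin that inactivates C1r and C1s (chr11:57597387-57614853, plus strand), was at 22.4 and 19.2 CPM in D0, 20.0 and 16.6 in D4, 19.6 and 20.7 in D7, and 18.3 and 14.4 in D10. Its D10 libraries were below its D0 libraries by a fitted -0.35 (SE 0.23) in log2.

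The membrane inhibitors went separate ways in the D10 library of experiment 2. CD55 encodes decay-accelerating factor, which dismantles C3 convertases on the cell surface (chr1:207321376-207386804, plus strand). It was at 48.7 and 42.5 CPM in D0, 39.0 and 34.3 in D4, 37.5 and 29.8 in D7, and 42.8 and 109 in D10. D4 and D7 were below D0, and the D10 libraries fell on either side of D0. The within-experiment log2 changes of CD55 at D10 were -0.19 and 1.36, and the fitted value of 0.74 (SE 0.40) became -0.09 without the D10 library of experiment 2.

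CD59 encodes protectin, which blocks assembly of the membrane attack pore (chr11:33703010-33736491, minus strand). It was at 908 and 601 CPM in D0, 1216 and 921 in D4, 1194 and 933 in D7, and 1171 and 474 in D10. At D4 and D7 it was above D0 in both experiments, with fitted log2 fold changes of 0.50 at each day (SE 0.45). The D10 libraries differed in direction, by 0.37 and -0.34 in log2. Without the D10 library of experiment 2 the fitted CD59 change at D10 was 0.64, and without that of experiment 1 it was -0.65. The ratio of CD59 to CD55 CPM was 18.6 and 14.1 in D0 and between 26.9 and 31.8 in D4 and D7, and at D10 it was 27.4 in experiment 1 and 4.34 in experiment 2.

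The D10 library of experiment 2 also stood apart in its fibroblast genes. All 8 fibroblast markers examined, among them the collagens COL1A1, COL1A2 and COL3A1, were present in every library. Their summed level was 9633 CPM in this library against at least 29649 in the other libraries. LUM, at 258 CPM in this library, was below the 444 in D0 of the same experiment. It was above the 243 in D0 and the 167 in D10 of experiment 1. The part of this library in the CD55 and CD59 values was not tested. Total counts ranged from 11708193 to 13395912. Markers of other cell types were low. The 8 macrophage markers summed to between 1.60 and 4.19 CPM, with PTPRC, CD163, ITGAM and MARCO at no more than 3 counts in any library. The 6 hepatocyte markers summed to between 6.87 and 11.3 CPM, from 6.87 to 7.28 at D0 and from 8.05 to 9.18 at D10, and their part in the C3 values was not tested. The epithelial markers summed to at most 2.53 CPM, and the endothelial ones to between 42.5 and 122 CPM, mostly TEK. In bulk RNA, fewer cells expressing a gene and less of its RNA per cell cannot be told apart.

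**Figure D2:**
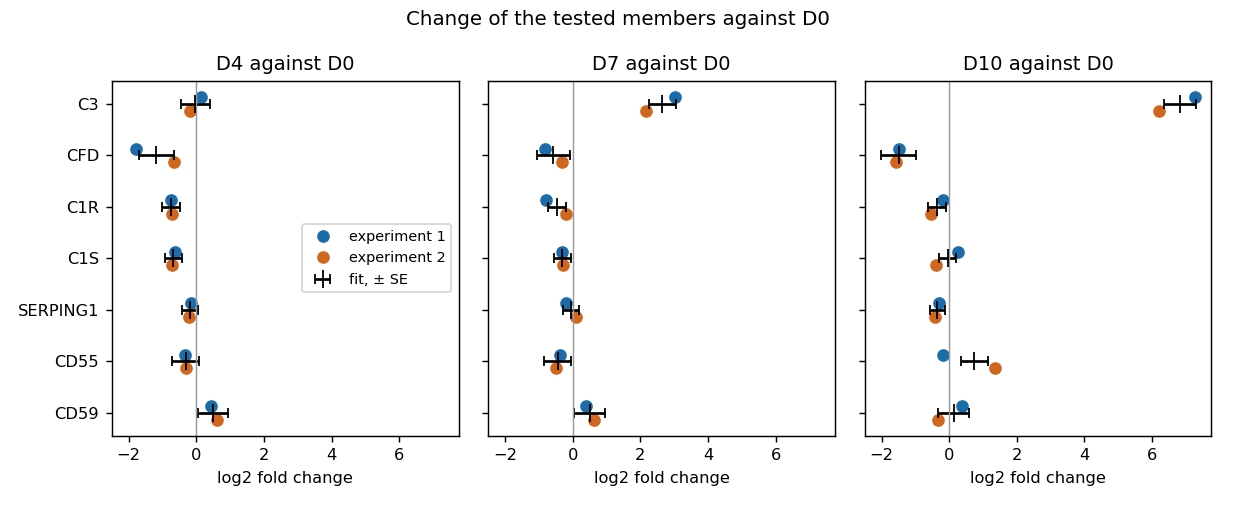
Log2 fold change against D0 on the x axis for the 7 members that passed the filter, at D4, D7 and D10, with coloured points for the change within each experiment (2 libraries) and a black mark with bars for the fitted change ± SE. At D10 C3 is at 7.28 and 6.21 and CFD at -1.50 and -1.58, and the 2 experiments fall on opposite sides of 0 for C1S, CD55 and CD59.

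Set against the other members at D10, the fitted log2 change of C3 exceeded that of the other activators by 8.32 (CFD), 7.18 (C1R) and 6.86 (C1S). It exceeded that of the inhibitors by 7.16 (SERPING1), 6.08 (CD55) and 6.69 (CD59). The value for CFD carries the limit from the filter given above. The rule that chose these genes used the same contrast, so the counts of members past a threshold are stated without a reading. By edgeR's quasi-likelihood test at 0.05 after Benjamini-Hochberg adjustment, no member was called at D4 or D7 and 1 of the 7 tested members, C3, at D10, when 0%, 0% and 0.290% of the 13798 tested genes were called. At an unadjusted p under 0.05 the same test gave 409 genes at D4 and 599 at D7. DESeq2, which tested other numbers of genes, called 44 of 15346 genes at D4 (0.287%), 112 of 14272 at D7 (0.785%) and 379 of 17494 at D10 (2.17%). A replicate block for the experiment takes account of libraries of the same experiment deviating together. With it the share of genes called was 0.275% at D4, 1.25% at D7 and 4.99% at D10. The block and DESeq2 both called C3 at D7 and at D10 and no other member on any day.

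C3 had a lower D10 level in experiment 2 than in experiment 1, which most of the genes called higher at D10 did not. Among the 27 genes called higher at D10 by edgeR's quasi-likelihood test without the block, C3 had the 4th largest fitted change. Its level in the D10 library of experiment 2 was 0.517 of that in experiment 1, the lowest ratio of the 27 genes. The median ratio was 1.33 and the highest 4.87, and 7 genes were below 1, namely C3, CXCL10, IRAK2, MT1L, NFKBIA, PLAU and SLC6A15. The ratio was not tested, since each experiment has 1 library at D10. It was also not examined in the 350 genes called higher with the replicate block or the 213 called higher by DESeq2. By CPM gained from D0 to D10, C3 ranked 37th among all tested genes in experiment 1 and 87th in experiment 2. Among the tested genes the mean CPM of C3 lay at percentile 18.4 at D0 and D4, 45.7 at D7 and 96.4 at D10.

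To compare levels between genes, CPM were divided by the length of all exons of a gene in kb. At D0 the order of these levels was C1S (94.0 ± 10.6 CPM per kb), CD59 (72.8 ± 20.9), C1R (50.7 ± 0.854), CD55 (7.72 ± 0.739), SERPING1 (5.77 ± 0.619), CFD (0.936 ± 0.228), C3 (0.336 ± 0.0195), CFB (0.0845 ± 0.0247) and CFI (0.00859 ± 0.0122; SD, n = 2 each). C1S and CD59 overlapped between libraries, whereas the other neighbours at D0 did not, except that CFB and CFI were both near the floor. C3 was 7th at D0 and D4, with 0.144% of the summed level of the 9 genes at D0. At D4 its libraries, 0.304 to 0.354 CPM per kb, overlapped those of CFD, 0.318 to 0.488. With the longest transcript as the length C3 was 6th at D4, so C3 and CFD could not be ordered there. With all exons as the length C3 was 6th at D7 with 2.10 CPM per kb.

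At D10 C3 was 4th, with 38.0 ± 17.1 CPM per kb (SD, n = 2) and 14.3% of the summed level. It followed C1S (91.0 ± 19.2), CD59 (79.4 ± 47.6) and C1R (39.4 ± 6.25). The C3 libraries spanned 25.9 to 50.1 CPM per kb and enclosed those of C1R, 35.0 to 43.8, so C3 and C1R could not be ordered at D10. The CD59 libraries, 45.8 to 113, overlapped those of C3 as well. CD55 was next with 12.9 ± 7.96 and its libraries lay below those of C3. With the longest transcript as the length C3 was at 60.1 CPM per kb at D10 and again 4th.

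**Figure D3:**
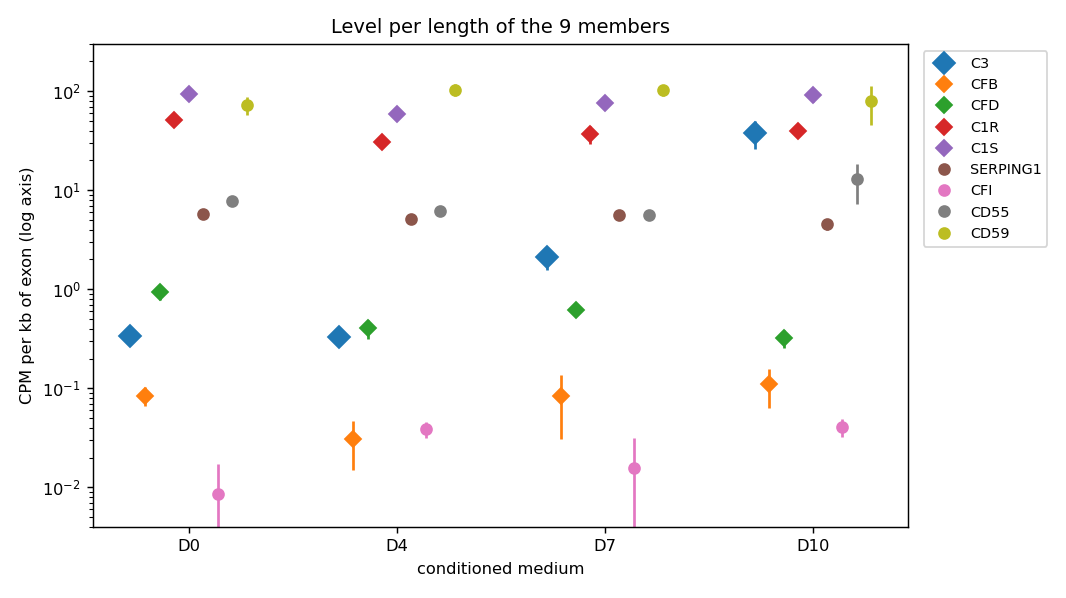
Level per length of the 9 members in CPM per kb of exon (log axis) in each conditioned medium group, with the mean of 2 libraries as a diamond (activators) or circle (inhibitors) and a line from the lower to the higher library. A line that reaches the bottom of the plot stands for a library with 0 counts. C3 moves from 0.336 at D0 to 38.0 CPM per kb at D10, next to C1R at 39.4.

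The wider complement system was examined with a list of 51 other complement genes. Of these, 44 were in the table, 13 passed the filter on low counts and 31 did not. CFHR2, CFHR4, CR1, CR1L, CSMD1, CSMD3 and CR2 were not analysed here. The 31 genes without a test had at most 13 counts in any library, and 15 of them had no more than 3 in every library. They include C1QA, C1QB and C1QC, which make up the recognition subunit C1q, and C2 and C4A, the substrates of C1s, with at most 9 counts for any C1q chain, 6 for C2 and 11 for C4A. C4A had 11 and 9 counts in D0, 1 and 2 in D4, 5 and 3 in D7, and 2 and 1 in D10. C4B had between 0 and 6 in all libraries. C4BPA went the other way from C4A, with 0 counts in both D0 libraries and 4 in both D10 libraries. All these counts are too low to compare. C4A and C4B share most of their sequence, so their reads cannot be assigned with certainty. The receptor for C3a, C3AR1, had between 0 and 5 counts. Differences in the 31 genes were not tested.

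After Benjamini-Hochberg adjustment, edgeR's quasi-likelihood test called 0 of the 13 tested genes on any of the 3 days. Their median log2 fold changes were -0.43, -0.10 and -0.32 at the 3 days, against 0.01, -0.00 and 0.00 over all tested genes. In both experiments alike, 8 of the 13 were lower and 2 higher at D4, 6 lower and 0 higher at D7, and 7 lower and 1 higher at D10. C6 is among the lower genes on each day. It passed the filter only through D0, with 10 and 11 counts there and between 1 and 5 later, so its direction was largely fixed. The medians, and the genes at an unadjusted p under 0.05 at D4, also include C6. Over all 13798 tested genes, D4 had 3989 that were lower and 4113 that were higher in both experiments, D7 had 4284 lower and 4318 higher, and D10 had 4461 lower and 4287 higher. At an unadjusted p under 0.05 the same test gave 3, 2 and 3 of the 13 genes on these days, and 409, 599 and 1095 of all tested genes. After adjustment, DESeq2 called 0, 1 and 1 of the 13 and the replicate block 0, 1 and 2, which are set against the shares of all genes given above.

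Among the 4 tested classical and lectin pathway genes outside the 9 members, MASP1 had the lowest fitted values. MASP1 encodes a protease of the lectin pathway and was at 189 and 177 CPM in D0, 92.2 and 56.1 in D4, 77.2 and 31.0 in D7, and 80.0 and 44.7 in D10. All 6 later libraries lay below both D0 libraries. The fitted log2 fold change at D10 was -1.55 (SE 0.47), with an adjusted p of 0.305 by edgeR's quasi-likelihood test. At D7 it was -1.76 (SE 0.48), with an adjusted p of 0.579 by the same test. With the replicate block MASP1 fell by 1.64 at D10 and 1.90 at D7 on the log2 scale, with adjusted p from edgeR of 0.00783 and 0.0162. DESeq2 gave adjusted p of 0.0459 at D10 and 0.031 at D7. Over all alternatives the adjusted p from edgeR and DESeq2 ranged from 0.00783 to 0.968 at D10 and from 0.0162 to 1 at D7. The highest values came from leaving out the D10 library of experiment 2 at D10, and the D0 library of experiment 1 or the D7 library of experiment 2 at D7.

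C1RL, which encodes a protease similar to C1r, was at 21.8 and 26.7 CPM in D0 and 23.6 and 26.0 in D10, with a fitted log2 fold change of 0.03. The collectins differed between experiments. COLEC12, a scavenger receptor with a collectin head, had log2 changes at D10 of -0.38 and 1.62, and COLEC10, a circulating collectin, 0.40 and 1.15. Their fitted values were 0.76 (SE 0.77) and 0.74 (SE 0.35).

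Of the terminal components, which build the membrane attack pore, 3 were tested and none was called. C7 was at 55.5 and 41.1 CPM in D0, 33.4 and 23.6 in D4, 36.7 and 14.5 in D7, and 27.9 and 4.42 in D10, and all later libraries were below D0. Its fitted log2 fold change at D10 was -1.58 (SE 0.75, adjusted p = 0.716 by edgeR's quasi-likelihood test). That value rested on the D10 libraries, at -0.79 without that of experiment 2 and -3.43 without that of experiment 1. With the replicate block the C7 change was -1.88, with an adjusted p from edgeR of 0.05, at the threshold and not called. C6 went from 10 and 11 counts in D0 to 2 and 5 in D10, with a fitted log2 fold change of -1.53 (SE 0.73). As stated above, C6 passed the filter only through its D0 libraries. C5, whose cleavage starts pore assembly, had a fitted value of -0.32 (SE 0.42) at D10, and its D10 libraries overlapped those of D0.

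Among the regulators, CD46, a membrane cofactor of factor I, was higher at D10 than at D0 in experiment 1 and lower in experiment 2. It was at 280 and 333 CPM in D0 and 361 and 288 in D10, with a fitted log2 fold change of 0.08 (SE 0.25). Clusterin and vitronectin, which bind the forming attack complex, had D10 levels below D0 in both experiments, without a call. CLU was at 1500 and 1126 CPM in D0 and 1048 and 407 in D10, with a fitted log2 fold change of -0.85 (SE 0.44, adjusted p = 0.795 by edgeR's quasi-likelihood test). Without the D10 library of experiment 2 the CLU value was -0.32, and without that of experiment 1 it was -1.67. VTN had 41 and 49 counts in D0, 8 and 15 in D7, and 21 in each D10 library, with a fitted -1.99 (SE 0.48) at D7 and -1.07 (SE 0.45) at D10. With the replicate block the D7 value of VTN was -2.01, with an adjusted p from edgeR of 0.0547, also not called.

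The receptor for C5a, C5AR1, had a lower level at each later day than at the day before in both experiments. It was at 3.10 and 3.13 CPM in D0, 2.25 and 1.86 in D4, 2.06 and 1.52 in D7, and 0.871 and 0.789 in D10. The counts were 37 and 43 in D0 and 11 and 10 in D10. Its fitted log2 fold change at D10 was -1.90 (SE 0.40), with an adjusted p of 0.110 by edgeR's quasi-likelihood test. With the replicate block it also fell by 1.90, with an adjusted p of 0.0181, and over all alternatives the adjusted p from edgeR and DESeq2 ranged from 0.0181 to 0.548, the highest without the D0 library of experiment 2. C1QBP, a mainly mitochondrial protein that can bind C1q, had a fitted log2 fold change of 0.12 at D10.

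**Figure D4:**
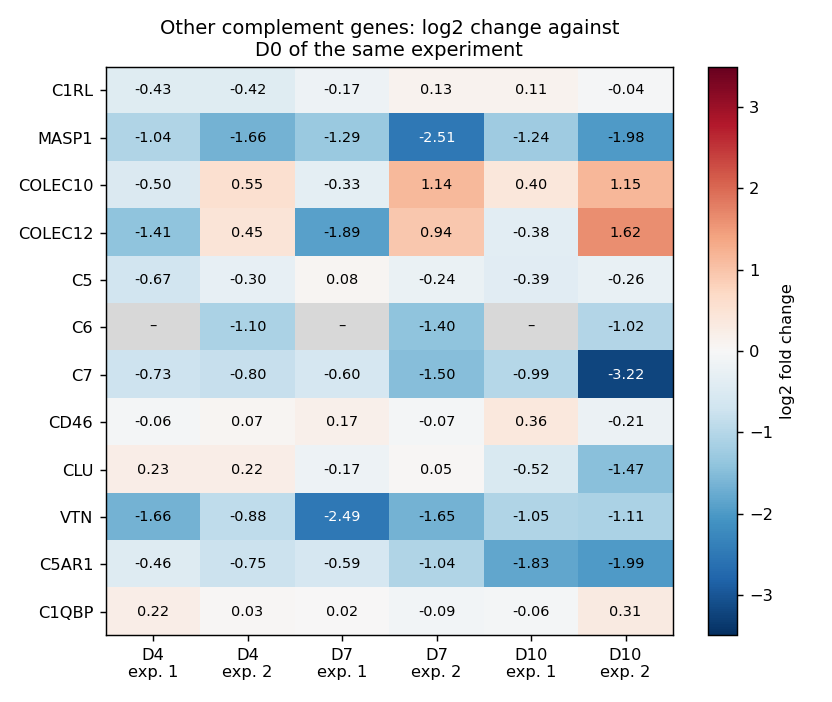
Log2 fold change (colour, with the value printed) of 12 tested complement genes outside the 9 members, in rows, at D4, D7 and D10 against D0 of the same experiment, in columns. A dash marks a change that was not computed because a library had no more than 3 counts. MASP1, C7, VTN and C5AR1 are below 0 in all 6 columns.

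The genes whose pattern was most like that of C3 were sought among the other tested genes by Pearson correlation of log2 CPM over the 8 libraries. The 10 genes with the highest r were CXCL10 (0.993), NFKBIA (0.988), RHBDD1 (0.979), SETD3 (0.978), TMEM132A (0.972), GPR176 (0.972), CTSS (0.969), AMPD3 (0.968), TNFAIP2 (0.967) and APLP2 (0.963). These r describe 8 points that share libraries and fall into 4 groups, and no test was made. None of the 10 is a complement gene. CXCL10, a chemokine for T cells, was the gene nearest to C3, with 1.76 and 1.38 CPM in D0, 7.64 and 3.34 in D7, and 45.0 and 27.4 in D10.

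NFKBIA encodes the inhibitor IkappaB-alpha and was at 108 and 103 CPM in D10, with a fitted log2 fold change of 1.79. CTSS, a lysosomal cysteine protease, went from 0.335 and 0.655 CPM to 8.55 and 9.70. A high r did not require a large change. The fitted log2 fold changes at D10 ranged from 0.27 for SETD3 to 4.52 for CXCL10, against 6.82 for C3. At D10 the level of CXCL10 in experiment 2 was 0.609 of that in experiment 1, and for the other 9 genes the ratio was between 0.955 and 1.13. With the mean of each experiment removed, 3 of the 10 genes remained among the 10 most like C3. The r of the 10 genes was then between 0.964 and 0.995, and other genes ranked above those that dropped out. The number that remained was 4 without the D10 library of experiment 1 and 5 without that of experiment 2. Without the D0 library of experiment 1 it was 6.

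**Figure D5:**
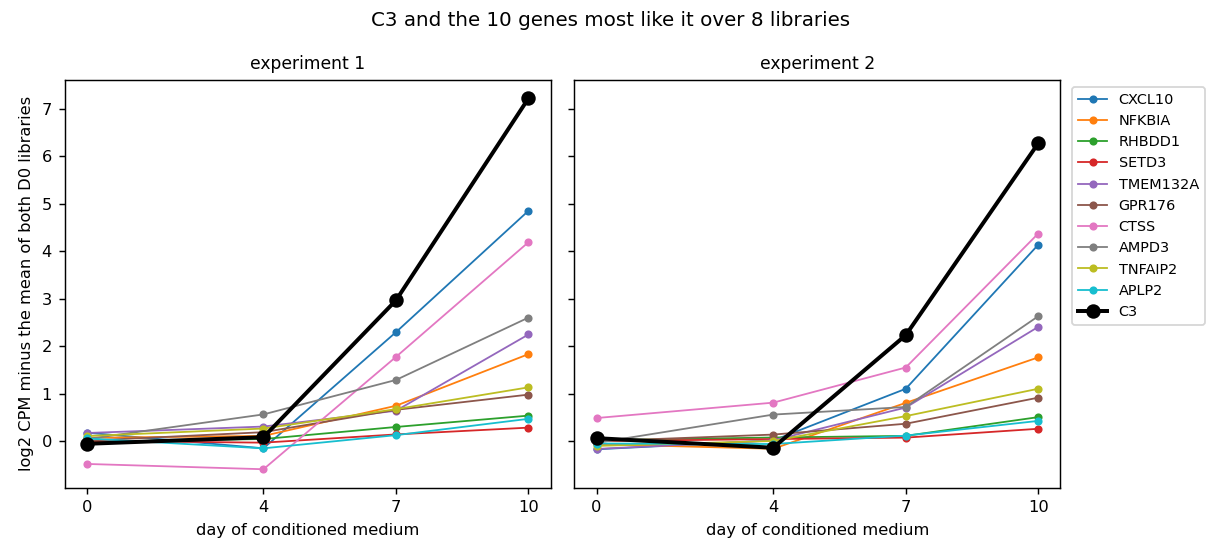
Log2 CPM minus the mean of both D0 libraries on the y axis against the day of the conditioned medium for C3 (black) and the 10 genes most like it, with experiment 1 on the left and experiment 2 on the right. CXCL10 and CTSS are nearest to C3 in size at D10, with fitted log2 fold changes of 4.52 and 4.16, and SETD3 is the flattest at 0.27.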

How the data were processed

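The 8 samples in 4 groups were sequenced as stranded libraries of poly(A) RNA. The authors deposited whole-number counts of reads per gene without normalization. The submitters' processing notes name STAR 2.5, DESeq2 and GRCh38 (hg38), while the counter, its annotation and its strand setting are not given in the sources used here. The 8 columns of normalized values in the same table were not used. One header reads DO and was taken as D0 replicate 1. Groups come from the sample labels, where nothing beyond the 2 experiments describes separate cultures.

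The filterByExpr function of edgeR 4.0.16 (R 4.3.3) left 13798 of 27696 genes, which were scaled with TMM and fitted by group over all 8 libraries with glmQLFit and glmQLFTest. Calls were made at 0.05 after Benjamini-Hochberg adjustment. Positions and lengths come from GENCODE 29, which holds 99.6% of the identifiers. Log2 CPM used a prior count of 2. The floor was fixed at 3 counts, and the library size adjusted with TMM set its value in CPM. Replicate spread (n = 2) limits precision more than counting error does for abundant genes. Alternatives were DESeq2 1.42.0, its size factors in edgeR, no filter, the compared groups only, a replicate block, an adjusted p under 0.01, another length or scaling, a prior count of 0.5 and leaving out each library. Figures were drawn with Python 3.11.15.

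Replicate numbers were taken as pairs in the within-experiment changes and in the replicate block, because they stand for 2 independent experiments. A further reason was that libraries with the same number departed from their group means together in all 6 pairs of groups. The r was from 0.418 to 0.722 over genes, which are not independent replicates. The main fit by group left this pairing out, so its SE and adjusted p include differences between the experiments. Its estimate of the spread between libraries (edgeR's common dispersion) was 0.0792, against 0.0242 with the replicate block. The members, the gene lists and the tests were chosen with earlier results of these data known. Named genes are the 9 members, the tested genes of the list of 51 other complement genes (the values of 1 of them are not reported here), and the 10 genes most correlated with C3. The other genes named are cell type markers and complement genes of special interest too low to test. C4BPA, and genes higher at D10 with a lower level in experiment 2, were named after their values were seen. The methods were tested on simulated counts.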

Additional observations from a re-analysis of the deposited data

How the results depend on the processing

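The log2 fold change of C3 kept its direction at D7 and D10 under every alternative, between 2.22 and 2.96 and between 6.28 and 7.21, and both extremes came from leaving out 1 library. At D4 it stayed between -0.15 and 0.08. For the other tested members 234 values were recomputed, of which 192 moved by less than the SD of the 2 experiments, 42 moved by more and 6 changed sign, at D7 for SERPING1 or at D10 for C1S, CD55 and CD59. The number of complement genes called outside the members went from 0 at D7 to 1 with the replicate block, 1 with no filter on low counts and 1 with DESeq2, in each case MASP1. At D10 it went from 0 to 2 with the replicate block (MASP1 and C5AR1), 1 with no filter and 1 with DESeq2 (MASP1). Leaving out 1 library was not combined with the replicate block and left 1 library in a group, so it cannot decide these calls. The replicate block changed no call of a member other than C3, which it also called at D7. With the longest transcript as length the C3 level was 0.531 CPM per kb at D0 and 60.1 at D10, since a shorter length divides the same counts. Of the 10 genes most like C3, the number shared was 3 with experiment means removed (replicate block), 9 with a prior count of 0.5, and between 4 and 9 when 1 library was left out, an alternative chosen after seeing the data. Genes under about 10 counts a library, such as CFB and CFI, could not be compared at this depth, and 2 libraries per group limit every comparison.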
